A study of Mus musculus domesticus and Mus musculus molossinus with 8 samples.

Results

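The thymus libraries of a 2-strain mouse experiment were compared, MSM/Ms (MSM) against C57BL/6 (B6), in animals left untreated and in animals injected with MegaFasL. They are 4 of the 8 libraries of the series, and each holds the transcriptome of the thymus of 1 mouse aged 8 weeks. One B6 and one MSM mouse were left untreated, and one B6 and one MSM mouse received 1.5 µg of MegaFasL into the peritoneum, so each combination of strain and treatment is 1 animal. The livers of these mice gave the other 4 libraries and were used here only for comparison. How long after injection the organs were taken is not stated in the labels. Genes were kept where the mean level over the 4 thymus libraries was at least 5 FPKM, a fragment count divided by the length of the transcript and the size of the library, which held for 7148 of 23284 genes. The difference of MSM minus B6 was taken in log2(FPKM + 1) within the untreated table and within the injected table, and the results below rest on differences seen in both.

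The thymus is the organ in which T lymphocytes mature. Its bulk is made of cortical thymocytes that rearrange their receptor genes and carry both CD4 and CD8. Cortical and medullary epithelial cells display self peptides on major histocompatibility complex (MHC) molecules, and the fit of a thymocyte's receptor to them decides whether it survives. B6 is the laboratory strain from which the mouse reference genome was built. MSM is an inbred strain derived from Japanese wild mice and is genetically distant from B6. MegaFasL is a multimeric form of Fas ligand, the agent that triggers the death receptor Fas, which thymocytes and hepatocytes both carry.

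All 4 libraries carried the genes that define thymus. Rag1, which cuts the receptor genes for rearrangement, stood at 587 and 489 FPKM in the B6 thymi (untreated, then injected, as in all pairs of values below) and at 199 and 306 FPKM in the MSM thymi. The co-receptor gene Cd8a stood at 218 and 215 FPKM in B6 and at 180 and 257 FPKM in MSM. Psmb11, the thymoproteasome subunit of cortical epithelium, stood at 13.2 and 13.7 FPKM in B6 and at 11.4 and 20.9 FPKM in MSM. Xist stood between 104 and 148 FPKM in every thymus. Deposited FPKM summed to between 313981 and 350415 per thymus library. Read back from the steps between low values, 5 FPKM on a transcript of 2 kb corresponded to an estimated 28.2 to 35.0 fragments.

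One library stood apart. The untreated MSM thymus held 19 hepatocyte markers at a summed level of 3578 FPKM, against 53.9 FPKM in the untreated B6, 109 FPKM in the injected B6 and 260.5 FPKM in the injected MSM thymus. Its 8 airway epithelium markers summed to 1167 FPKM, against 1.22 to 7.29 FPKM in the other 3 thymi. Its 10 fat markers summed to 1428 FPKM, against 173 to 264 FPKM, and its 10 muscle markers to 88.6 FPKM, against 0.53 to 6.40 FPKM. Of the 19 hepatocyte markers 0 were listed at 0 in any thymus, while 5 of the 8 airway markers were listed at 0 in each of the other 3 thymi. Scgb1a1, the club cell secretory protein gene, was at 400 FPKM in that library and listed at 0 in the other 3. The part of these signals in the strain differences was not tested. Values of the injected pair are given beside many results, while some genes and list medians are given only as the mean of both pairs. In whole tissue, fewer cells of a type and less RNA per cell cannot be told apart.

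**Figure D1:**
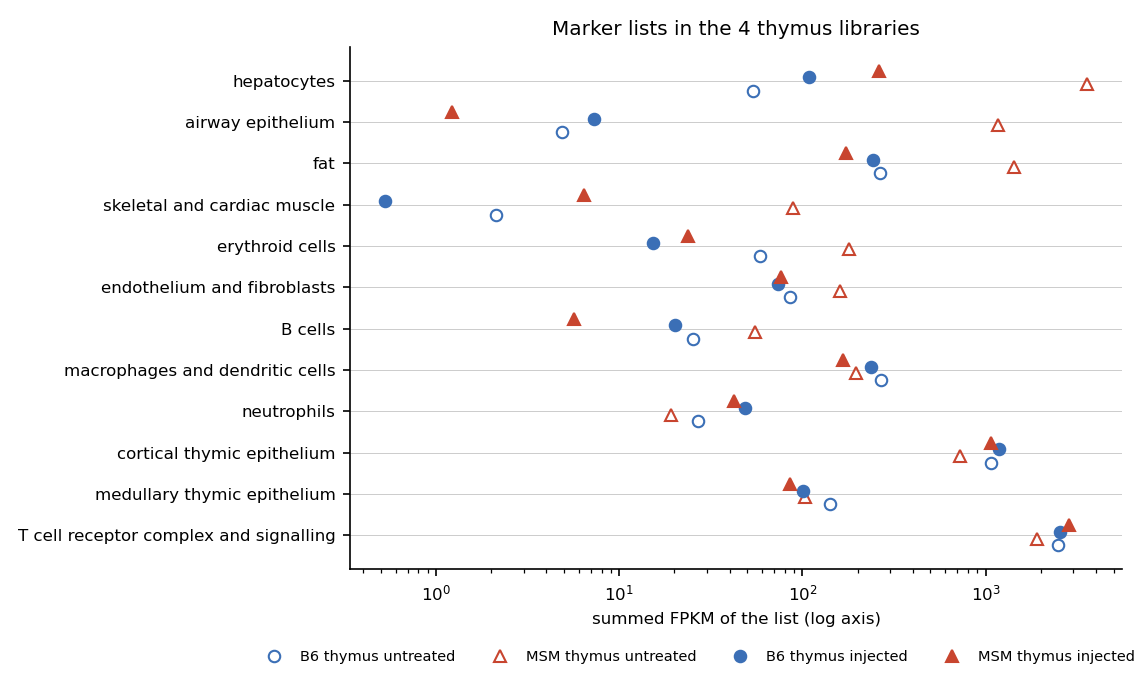
Summed FPKM (log axis) of each marker list in the 4 thymus libraries, with B6 as circles, MSM as triangles, untreated open and injected filled. The open triangles of the untreated MSM thymus lie far to the right for hepatocyte (3578 FPKM), airway (1167 FPKM) and fat markers (1428 FPKM), while the lists of thymocyte and epithelial genes lie close together in all 4.

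Across all genes, limma with the treatment as a block called 184 genes (2.57% of 7148) at a Benjamini-Hochberg adjusted p under 0.05, with the same direction in both tables. Of these, 89 were higher in MSM (1.25%) and 95 were lower (1.33%), and 1021 genes had an unadjusted p under 0.05. By size alone, 114 genes (1.59%) were at least 2-fold higher in MSM in both tables and 127 (1.78%) at least 2-fold lower, while 29 were 2-fold apart in opposite directions. The 2-fold differences of the untreated pair were 451 higher and 284 lower, against 260 higher and 275 lower in the injected pair. Of the 184 called genes, 165 were 2-fold apart in both tables, and 100 differed by less than 0.5 log2 units between the tables. The error of a difference is therefore the disagreement between the untreated and the injected pair, pooled with that of other genes. Variation between animals of the same strain and treatment was not measured.

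The count of calls moved with the settings. After each library was centred by its median ratio, 34 of the 184 calls remained, 12 higher and 22 lower, and after rescaling to a common sum 31 remained, 10 higher and 21 lower. With 3 libraries the treatment block cannot be fitted, so leaving out a library also dropped the block and set libraries of both tables against each other; without the block alone, 86 genes were called. Under that fit without the untreated MSM thymus, 23 genes were higher and 37 lower, of which 52 were among the 184. Without the untreated B6 thymus 15 genes were called in all, without the injected B6 thymus 23, and without the injected MSM thymus 202. The parts of the library and of the block in these counts were not tested. The genes called in every setting in which they were tested, leaving out each library included, are named where they occur below.

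**Figure D2:**
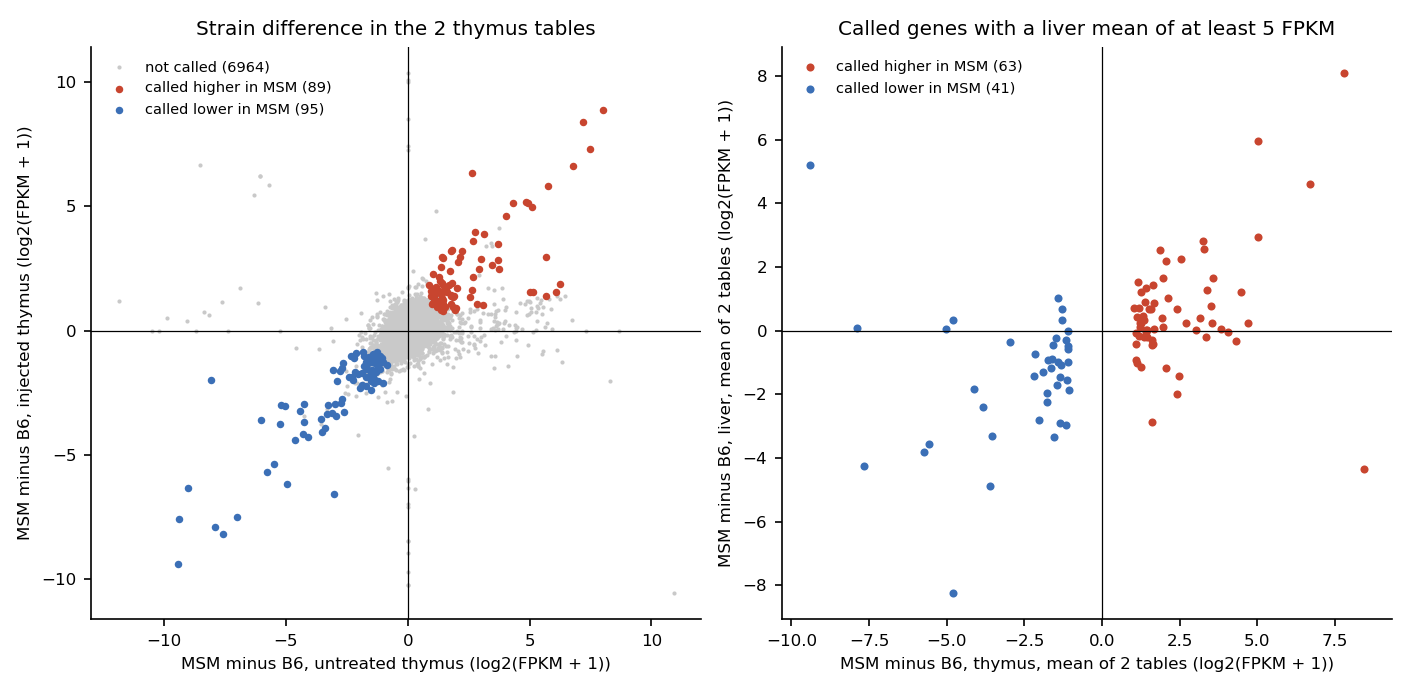
Left, MSM minus B6 in log2(FPKM + 1) in the untreated (x) and injected (y) thymus for 7148 genes, with the 89 genes called higher in red and the 95 called lower in blue. Right, the mean thymus difference (x) and mean liver difference (y) of the called genes with a liver mean of at least 5 FPKM, 63 higher and 41 lower; the genes lower in the thymus lie mostly below 0 in liver too.

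A large group of strain differences lay in the MHC region of chromosome 17. Between chr17:33996012-36190151 (mm10), 13 of the 67 genes tested were called, 6 higher and 7 lower in MSM, and 11 of the 13 belong to the list of MHC genes. This stretch and those given below start and end at called genes. The share called within them is raised by that choice of borders. Of 24 MHC genes tested, 5 were called higher and 6 lower, against 1.25% and 1.33% of all genes tested. Their median difference was -0.02, and the median of all genes tested was 0.05.

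The classical class II genes were lower in MSM with a single exception. Class II molecules present peptides to CD4 T cells and are made by thymic epithelium, dendritic cells and B cells. H2-Eb1, the beta chain of the I-E molecule, stood at 74.3 and 87.1 FPKM in B6 and at 1.45 and 0.22 FPKM in MSM (-5.56 ± 0.30 log2 units, limma estimate ± SE, adjusted p = 9.97e-06). H2-Aa, the I-A alpha chain, stood at 212 and 214 FPKM in B6 and at 57.6 and 65.9 FPKM in MSM (-1.77 ± 0.29, limma adjusted p = 0.0123). Its partner H2-Ab1 stood at 88.4 and 113 FPKM in B6 and at 32.2 and 30.1 FPKM in MSM (-1.65 ± 0.27, limma adjusted p = 0.014). For all 3 genes both MSM thymi lay below both B6 thymi.

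H2-Ea-ps, the alpha chain gene of I-E, was the exception. It was listed at 0 in both B6 thymi and stood at 53.7 and 55.8 FPKM in MSM (limma adjusted p = 9.59e-06), and it was called in every setting in which it was tested. B6 carries the b haplotype, in which this gene is a pseudogene without promoter activity and no I-E molecule reaches the cell surface. The other class II genes did not pass. Cd74, the invariant chain that escorts class II molecules, stood at 307 and 448 FPKM in B6 and 262 and 280 FPKM in MSM (limma adjusted p = 0.59). H2-DMa and H2-DMb2, which load the peptides, differed by 0.29 and 0.62 log2 units.

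Among class I genes, the calls fell on both sides. H2-K1, a classical class I heavy chain that presents peptides to CD8 T cells, stood at 163 and 156 FPKM in B6 and at 19.1 and 0.667 FPKM in MSM (-4.79 ± 0.64, limma adjusted p = 0.00461). H2-D1, the other classical gene of B6, stood at 99.6 and 127 FPKM in B6 and at 91.2 and 70.5 FPKM in MSM and did not pass (limma adjusted p = 0.54). B2m, the light chain common to class I molecules, stood at 431 and 392 FPKM in B6 and at 484 and 371 FPKM in MSM (limma adjusted p = 0.972). The strains overlapped in B2m and were far apart in H2-K1.

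Of the non-classical class I genes that passed, those of the Q region were lower in MSM apart from H2-Q10, and those of the T region were higher. H2-Q2 stood at 26.2 and 29.4 FPKM in B6 and at 0.395 and 0.715 FPKM in MSM (-4.22 ± 0.36, limma adjusted p = 0.000263), and H2-Q4 at 35.9 and 44.5 FPKM against 11.8 and 13.1 FPKM (-1.61 ± 0.24, limma adjusted p = 0.00806). H2-T3, the thymus leukemia antigen, which thymocytes of some strains carry and those of B6 lack, stood at 0.147 FPKM and 0 in B6 and at 17.9 and 23.5 FPKM in MSM (4.33 ± 0.68, limma adjusted p = 0.0105). H2-T22, a ligand of a subset of gamma delta T cells, was higher by 1.10 ± 0.23 (limma adjusted p = 0.0467) and its relative H2-T9 by 1.60 ± 0.23 (limma adjusted p = 0.00795).

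H2-Q10, a secreted class I molecule made mainly by liver, was also higher in MSM thymus. It stood at 1.60 and 0.467 FPKM in B6 and at 27.3 and 8.08 FPKM in MSM, and at 868 to 911 FPKM in the 4 livers. The higher of its MSM values is that of the library with hepatocyte markers, and the gene passed the filter only through that library. Parts of class I transcripts are shared between genes: 21.5% of the 32-base words of H2-K1, 30.8% of H2-Q2 and 50.04% of H2-T22 also occur in other genes of the annotation. MSM reads were placed on a B6 genome, and the share of MSM reads that failed to align at these divergent genes was not tested.

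**Figure D3:**
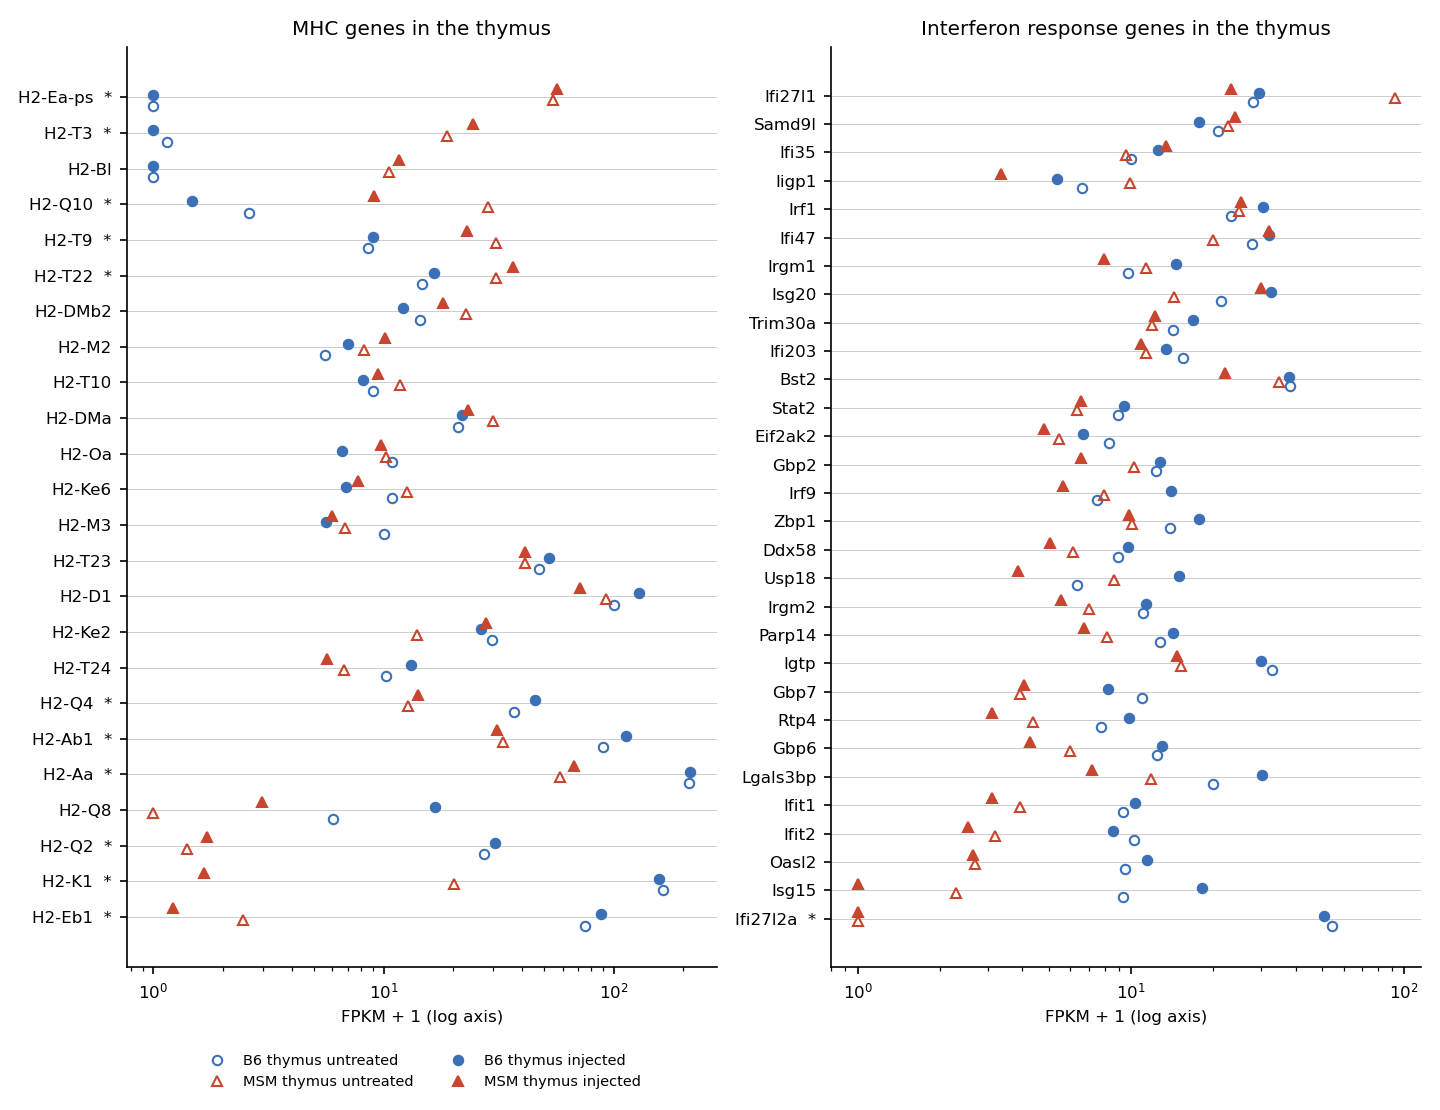
FPKM + 1 (log axis) in each thymus library for the 24 MHC genes (left) and 30 of the 31 interferon response genes (right) that were tested, sorted by the strain difference, with asterisks on called genes. H2-Ea-ps, H2-T3 and H2-Bl are at or near 0 in both B6 thymi only, and Ifi27l2a is at 0 in both MSM thymi only.

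Genes that interferon induces had mostly lower values in MSM thymus, although a single one passed the test. Of 31 tested, 28 had a negative difference and 23 (74.2%) were lower in both tables, against 26.3% of all genes tested. The median was -0.65, with -0.54 in the untreated and -0.95 in the injected pair, and 8 genes were at least 2-fold lower in both. Ifi27l2a, an interferon-induced gene, was listed at 0 in MSM untreated and injected alike, against 53.4 and 50.05 FPKM in B6 (limma adjusted p = 1.31e-05). It was called in every setting in which it was tested and was listed at 0 in both MSM livers as well.

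The other genes of this list did not reach the threshold. Isg15, a ubiquitin-like modifier, stood at 8.38 and 17.1 FPKM in B6 and at 1.28 FPKM and 0 in MSM (limma adjusted p = 0.123). The groups do not overlap, and the SE of a gene near 0 is wide in this fit. In liver 23 interferon genes reached a mean of 5 FPKM, and 19 of them were lower in MSM in both tables (82.6%), against 27.5% of all tested genes expressed there.

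Among the 12 largest calls lower in MSM was Ubd. It encodes a ubiquitin-like protein found in dendritic cells and medullary epithelium. It stood at 47.8 and 47.2 FPKM in B6 and at 0.964 and 1.31 FPKM in MSM (-4.51 ± 0.24, limma adjusted p = 8.55e-06) and was called in every setting in which it was tested. Gbp8 and Gbp4, guanylate-binding proteins, and Ifngr1, a chain of the interferon gamma receptor, were chosen after their values were seen. Gbp8 stood at 46.5 and 45.2 FPKM in B6 and at 5.18 and 3.27 FPKM in MSM, and Gbp4 at 33.6 and 30.1 FPKM against 9.45 and 7.66 FPKM. Ifngr1 stood at 94.9 and 68.1 FPKM in B6 and at 17.0 and 17.9 FPKM in MSM (-2.14 ± 0.27, limma adjusted p = 0.00318).

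The peptide supply to MHC molecules did not differ beyond the test. Of 18 antigen processing genes, 0 were called, 3 had an unadjusted p under 0.05 and the median was -0.17. Psmb8, an immunoproteasome subunit, stood at 83.2 and 70.3 FPKM in B6 and at 76.0 and 87.1 FPKM in MSM. Cd1d1, which presents lipids to NKT cells, stood at 11.3 and 12.3 FPKM in B6 and at 4.96 and 1.96 FPKM in MSM (-1.61 ± 0.37, limma adjusted p = 0.0623).

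The Ifitm genes, whose proteins restrict the entry of viruses, went the opposite way from the interferon list. Ifitm2 stood at 17.1 and 14.0 FPKM in B6 and at 355 and 523 FPKM in MSM (4.72 ± 0.31, limma adjusted p = 4.6e-05). Ifitm1 stood at 1.22 and 0.593 FPKM in B6 and at 18.4 and 22.9 FPKM in MSM (3.52 ± 0.41, limma adjusted p = 0.00215). Their neighbour Ifitm3 stood at 41.7 and 43.2 FPKM in B6 and at 58.0 and 43.2 FPKM in MSM and did not pass (limma adjusted p = 0.785). In liver Ifitm2 was at 281 and 191 FPKM in B6 and 297 and 250 FPKM in MSM, and the thymus and liver differences were not separated over all genes (limma adjusted p = 0.0785). The stretch chr7:140898942-140969827, whose borders are called genes, holds 4 tested genes, all called. The others are Athl1, higher by 1.46, and Cox8b, a cytochrome oxidase subunit, lower by 1.61.

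Several Ly6 genes, which encode small lipid-anchored surface proteins of lymphocytes, were lower in MSM. Of 6 tested, 3 were called lower and 0 higher, against 1.33% and 1.25% of all genes tested, with a median of -1.59. Ly6d, carried by thymocytes and early B cells, stood at 112 and 126 FPKM in B6 and at 8.70 and 6.57 FPKM in MSM (-3.80 ± 0.26, limma adjusted p = 5.58e-05). Ly6k fell by 1.60 and Ly6c2 by 1.58 log2 units, with all MSM values below all B6 values. Ly6a, which encodes the stem cell antigen Sca-1, stood at 19.5 and 31.3 FPKM in B6 and at 11.9 and 3.59 FPKM in MSM (limma adjusted p = 0.0736). The 3 called genes lie within chr15:74762056-75111949, where 6 genes were tested.

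A few other genes were nearly absent from MSM thymus, and of these Cd96 and Cpne8 were chosen after their values were seen. Cd96, a receptor of T and NK cells, stood at 32.2 and 24.3 FPKM in B6 and at 0 and 2.11 FPKM in MSM (-4.04 ± 0.47, limma adjusted p = 0.00214). Cpne8, a calcium-dependent membrane-binding protein, stood at 51.9 and 41.2 FPKM in B6 and at 1.47 and 3.48 FPKM in MSM (-3.83 ± 0.29, limma adjusted p = 0.00012). Erdr1, which the size rule takes, stood at 43.4 and 62.9 FPKM in B6 and at 0 and 0.558 FPKM in MSM.

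Histone genes gave more calls by count than any other list. Shorter lists had larger shares called, as with 11 of 24 MHC genes and 3 of 6 Ly6 genes. Replication-dependent histone genes supply the nucleosomes of dividing cells, and their transcripts end in a stem loop in place of a poly(A) tail. These libraries were made from polyadenylated RNA, and how well they measure histone transcripts, as single copies or as sums, was not tested. Of 55 tested, 16 were called lower in MSM and 3 higher, against 1.33% and 1.25% of all genes tested. Their median was -0.52 (-0.92 untreated, -0.11 injected). Hist1h2bj was listed at 0 in the 2 MSM libraries, against 242 and 237 FPKM in B6 (limma adjusted p = 1.85e-07). Hist1h2ak stood at 666 and 502 FPKM in B6 and at 0 and 1.68 FPKM in MSM (limma adjusted p = 3.94e-06). Hist1h2bn stood at 638 and 497 FPKM in B6 and at 3.96 and 1.79 FPKM in MSM (-7.24 ± 0.27, limma adjusted p = 7.46e-07). Hist1h2bj and Hist1h2bn were called in every setting in which they were tested.

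Hist1h4m stood at 512 and 335 FPKM in B6 and at 0 and 3.17 FPKM in MSM. Hist1h2bm stood at 701 and 557 FPKM in B6 and at 9.90 and 44.9 FPKM in MSM, and Hist1h2bf at 260 and 182 FPKM against 5.94 and 12.6 FPKM. The other 10 histone genes called lower had differences from -4.11 to -1.40.

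Other copies were higher in MSM. Hist1h4i stood at 27.7 and 27.5 FPKM in B6 and at 375 and 316 FPKM in MSM (3.59 ± 0.28, limma adjusted p = 0.000143), and Hist1h2bl at 245 and 202 FPKM against 1086 and 1602 FPKM (2.56 ± 0.34, limma adjusted p = 0.00432). Hist1h2bp was higher by 2.18. Histone copies are near-identical: 66.7% of the 32-base words of Hist1h2bj, 88.0% of Hist1h2bn and 88.6% of Hist1h2bl occur in other genes, so the split of reads among copies is uncertain.

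Summed over each class, the histones did not follow the single copies. The 18 H2B genes summed to 5758 and 4763 FPKM in B6 and to 3451 and 5247 FPKM in MSM, a difference of -0.74 in the untreated and 0.14 in the injected pair. The 13 H4 genes gave -0.68 and -0.11, and the 12 H3 genes -0.78 and 0.16. H2A was lower in both pairs, by -1.59 and -0.43. All 67 histone genes together summed to 19008 and 15325 FPKM in B6 and to 10956 and 15582 FPKM in MSM, so MSM was lower in the untreated pair and close to B6 in the injected pair. The called copies of chromosome 13 lie in 2 stretches. These are chr13:21715763-22043610 with 10 of 19 tested genes called (3 higher, 7 lower) and chr13:23533911-23747201 with 7 of 20 called, all lower. The other 2 called copies, both lower, lie at chr11:58948911-58954512.

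**Figure D4:**
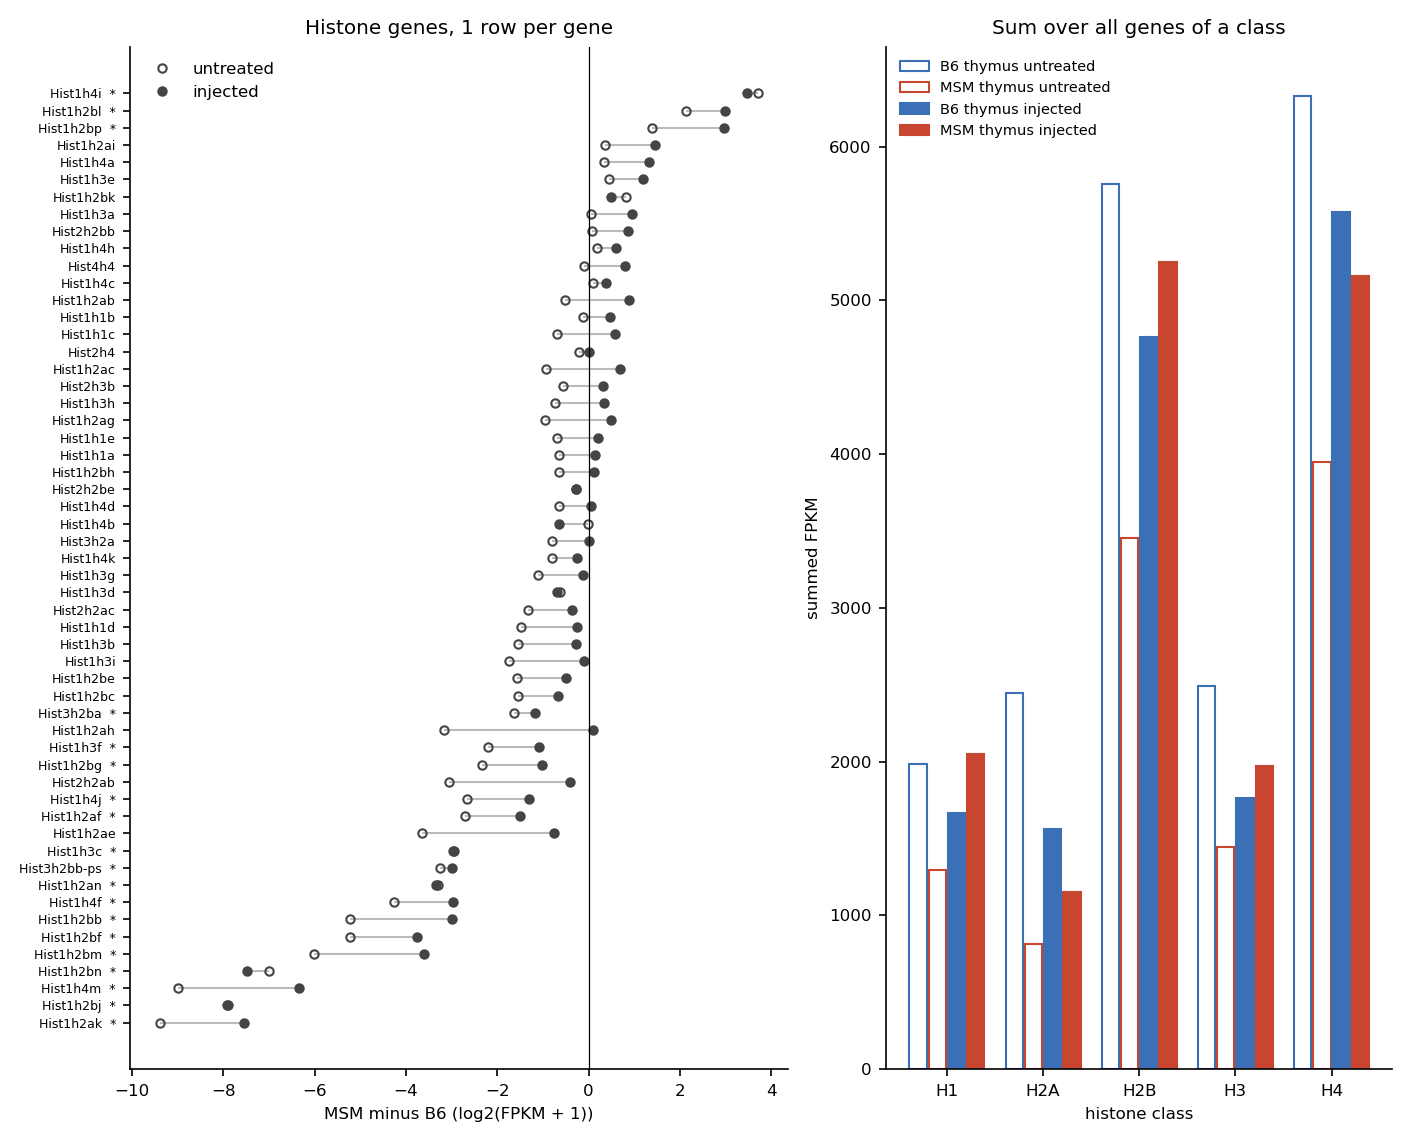
Left, MSM minus B6 in log2(FPKM + 1) for 55 histone genes in the untreated (open) and injected (filled) thymus, with asterisks on called genes. Right, FPKM summed over all genes of each histone class in each library: single copies differ by up to -8.47 log2 units, while the H2B sums of the injected pair are 4763 FPKM in B6 and 5247 FPKM in MSM.

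Genes of T cell development gave few calls. Of 23 genes of the T cell receptor complex and its signalling, 0 were called (2 at an unadjusted p under 0.05) and the differences ran from -1.06 to 0.59. Their median was -0.03, with -0.25 in the untreated and 0.22 in the injected pair. Cd3e, a signalling chain of the receptor, stood at 79.0 and 92.3 FPKM in B6 and at 55.1 and 82.4 FPKM in MSM. Lck, the kinase that starts receptor signalling, stood at 236 and 269 FPKM in B6 and at 211 and 286 FPKM in MSM. The 14 transcription factors of the T lineage gave 0 calls and a median of -0.17, and the 7 genes induced by receptor signals during selection gave 0 calls and a median of 0.05.

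Cd44 was the exception among 12 genes of early thymocytes. It encodes a hyaluronan receptor that marks the earliest thymic progenitors and activated T cells, and it stood at 7.75 and 5.25 FPKM in B6 and at 20.3 and 27.3 FPKM in MSM (1.73 ± 0.26, limma adjusted p = 0.00948). The median of these 12 genes was -0.37, and 9 were lower in both tables, against 26.3% of all genes. Rag1 differed by -1.12 ± 0.34 (limma adjusted p = 0.152), with -1.56 in the untreated and -0.67 in the injected pair. Dntt, the polymerase that adds bases at receptor joints, stood at 404 and 354 FPKM in B6 and at 250 and 329 FPKM in MSM (limma adjusted p = 0.657). The marker sum of the cortical epithelium, whose list gave 0 calls and a median of -0.36, was 1069 and 1180 FPKM in B6 and 728 and 1067 FPKM in MSM.

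Genes of mature thymocytes were mixed. Ms4a6b, a tetraspanning membrane protein of T cells, was the single call of 10 tested, at 25.2 and 15.8 FPKM in B6 and 4.53 and 3.24 FPKM in MSM (-2.11 ± 0.24, limma adjusted p = 0.00158). Its relative Ms4a4b stood at 18.4 and 9.83 FPKM in B6 and was listed at 0 in both MSM thymi, yet did not pass (limma adjusted p = 0.145). S1pr1, the receptor that draws mature thymocytes into the blood, stood at 5.23 and 3.78 FPKM in B6 and at 10.1 and 6.13 FPKM in MSM (limma adjusted p = 0.4).

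The Gimap genes, a cluster of GTPases that sustain lymphocyte survival, had mostly higher values in MSM. Of 8 tested, 2 were called higher, 6 were higher in both tables (33.3% of all genes were), and the median was 0.67 (0.39 untreated, 0.78 injected). In liver 3 of them reached a mean of 5 FPKM, and all 3 were lower in MSM in both tables. Gimap5, loss of which costs mice and rats their peripheral T cells, stood at 3.83 and 4.43 FPKM in B6 and at 11.2 and 14.6 FPKM in MSM (1.43 ± 0.27, limma adjusted p = 0.0285). Gimap4 stood at 11.8 and 15.9 FPKM in B6 and at 36.0 and 31.9 FPKM in MSM (1.25 ± 0.25, limma adjusted p = 0.0383). Gimap3 went the opposite way, at 12.5 and 9.31 FPKM in B6 and 4.37 and 5.45 FPKM in MSM, and did not pass (limma adjusted p = 0.139).

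**Figure D5:**
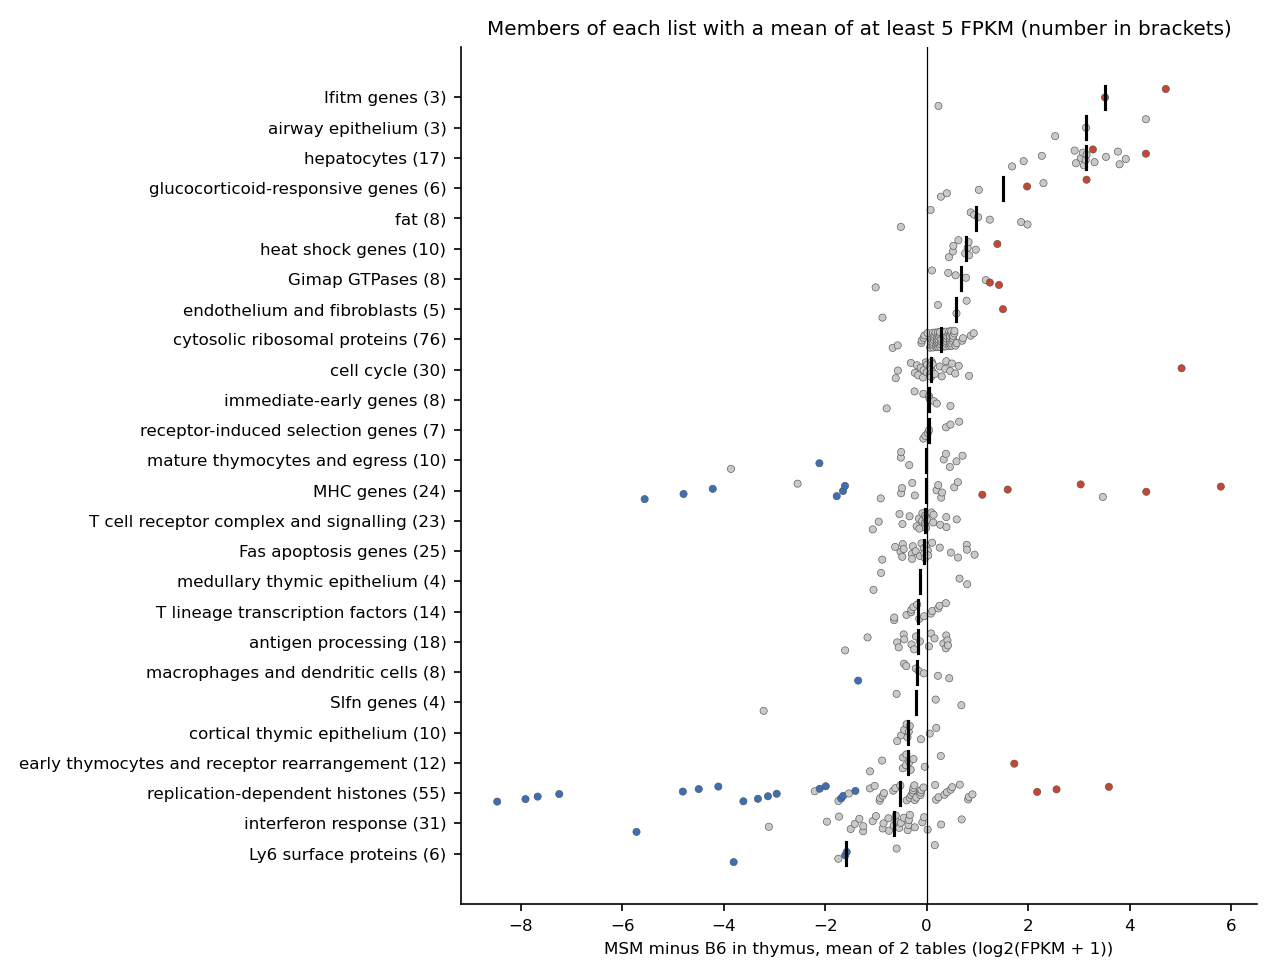
MSM minus B6 in log2(FPKM + 1), the mean of both tables, for every tested member of each list with at least 3 such members, with the median as a bar, genes called higher in red and genes called lower in blue. The T cell receptor (-0.03) and Fas (-0.06) lists centre near 0, the interferon list lies at -0.65, and the MHC and histone lists spread to both sides. The T cell receptor median is -0.25 in the untreated and 0.22 in the injected pair.

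Glucocorticoid-responsive genes that were tested had higher values in MSM thymus. They answer to the stress hormone corticosterone, to which cortical thymocytes are sensitive. All 6 tested, of 12 listed, were higher in both tables, against 33.3% of all genes. Of them 2 were called, and the median was 1.51 (1.11 untreated, 1.16 injected). Pdk4, 1 of the 6, stood at 1.87 and 1.09 FPKM in B6 and at 31.9 and 3.45 FPKM in MSM. It reached the mean of 5 FPKM only through the untreated MSM thymus, so the filter favoured a higher MSM value for it. In liver 2 of the 6 were higher in MSM in both tables and 0 were lower in both. Sgk1, a kinase that acts on ion channels and cell survival, stood at 5.02 and 4.59 FPKM in B6 and at 37.7 and 67.8 FPKM in MSM (3.15 ± 0.27, limma adjusted p = 0.000263). Ddit4, an inhibitor of the growth kinase mTOR, stood at 10.95 and 10.8 FPKM in B6 and at 30.1 and 69.7 FPKM in MSM (1.98 ± 0.31, limma adjusted p = 0.0105). Tsc22d3, which encodes the glucocorticoid-induced leucine zipper, stood at 20.2 and 54.0 FPKM in B6 and at 36.7 and 128 FPKM in MSM (1.03 ± 0.27, limma adjusted p = 0.0977).

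Within each strain, Tsc22d3 and Fkbp5 were higher in the injected animal. Fkbp5, a co-chaperone of the glucocorticoid receptor, stood at 18.9 FPKM untreated and 47.8 FPKM injected in B6, and at 21.5 and 62.4 FPKM in MSM. Treatment coincides with a separately normalized table and with different animals, so the injection was not tested. The strain difference of Fkbp5 was 0.28 ± 0.25 (limma adjusted p = 0.696).

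Heat shock genes had slightly higher values in MSM. All 10 tested were higher in MSM in both tables, against 33.3% of all genes, with a median of 0.78, and Hsph1, a chaperone of the Hsp110 family, was the single call. It stood at 10.2 and 27.3 FPKM in B6 and at 24.5 and 84.8 FPKM in MSM (1.40 ± 0.25, limma adjusted p = 0.021). In liver 9 of the 10 were higher in MSM in both tables, against 33.8% of all tested genes expressed there. The metal-binding metallothioneins Mt1 and Mt2, chosen after their values were seen, were higher by 1.33 ± 0.23 and 1.65 ± 0.26 (limma adjusted p = 0.0174 and 0.0123). Among 76 cytosolic ribosomal protein genes 0 were called, 53 (69.7%) were higher in MSM in both tables against 33.3% of all genes, and the median was 0.29 (0.13 untreated, 0.45 injected). Their liver values did not share this direction: of 75 with a liver mean of at least 5 FPKM, 8 were higher in MSM in both tables and 40 lower.

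The Fas pathway gave no strain difference past the test. Of 25 genes tested, 0 were called by limma, 5 had an unadjusted p under 0.05, and the median was -0.06. Fas itself stood at 27.9 and 17.3 FPKM in B6 and at 8.83 and 14.99 FPKM in MSM (-0.88 ± 0.32, limma adjusted p = 0.237), with -1.55 in the untreated and -0.20 in the injected pair. Both MSM values lay below both B6 values, but the injected pair was close. Casp8, the initiator caspase that Fas activates, stood at 15.4 and 20.5 FPKM in B6 and at 11.6 and 10.8 FPKM in MSM (limma adjusted p = 0.259).

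Over the 25 genes, 7 (28%) were higher in MSM in both tables and 10 (40%) were lower in both. Of all genes tested, 33.3% were higher and 26.3% lower in both. Bid and Bcl2 were among the 7. Bid, which carries the signal of caspase-8 to mitochondria, stood at 13.1 and 11.9 FPKM in B6 and at 22.4 and 27.7 FPKM in MSM (0.94 ± 0.24, limma adjusted p = 0.0848). Bcl2, an inhibitor of mitochondrial death, stood at 7.83 and 10.6 FPKM in B6 and at 12.96 and 16.3 FPKM in MSM (limma adjusted p = 0.221). The gene of the ligand itself, Fasl, reached at most 0.571 FPKM in any thymus and was not tested.

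Several neighbouring pairs and triplets of genes differed together. Spdya, a cyclin-dependent kinase activator of the Speedy family, was listed at 0 in both B6 thymi and stood at 28.0 and 35.7 FPKM in MSM (limma adjusted p = 0.000514). Trmt61b, a mitochondrial tRNA methyltransferase, stood at 4.88 and 3.25 FPKM in B6 and at 39.0 and 66.0 FPKM in MSM (3.37 ± 0.30, limma adjusted p = 0.000295). The 2 genes overlap on opposite strands at chr17:71552061-71598761, and their reads cannot be told apart without strand.

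On chromosome 2, all 3 tested genes of chr2:163623273-163750177, a stretch bounded by called genes, were higher in MSM. Serinc3, a membrane protein that restricts retroviruses, stood at 61.2 and 73.4 FPKM in B6 and at 261 and 500 FPKM in MSM (2.41 ± 0.31, limma adjusted p = 0.00383). Pkig, an inhibitor of protein kinase A, stood at 4.56 and 8.38 FPKM in B6 and at 41.6 and 51.7 FPKM in MSM (2.71 ± 0.24, limma adjusted p = 0.00027). Ada, adenosine deaminase, whose loss destroys thymocytes, stood at 17.1 and 18.7 FPKM in B6 and at 35.8 and 54.3 FPKM in MSM (1.25 ± 0.25, limma adjusted p = 0.0383).

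Some pairs of near-identical genes differed in opposite directions. Lyz2, the lysozyme of macrophages, stood at 92.6 and 76.0 FPKM in B6 and at 41.4 and 25.1 FPKM in MSM (-1.35 ± 0.27, limma adjusted p = 0.038), and Lyz1, chosen after its values were seen, at 14.7 and 11.4 FPKM against 96.0 and 37.4 FPKM (2.13 ± 0.29, limma adjusted p = 0.00586). The glycolytic enzyme gene Eno1 stood at 68.8 and 74.2 FPKM in B6 and at 23.9 and 17.5 FPKM in MSM, and its copy Gm5506 at 16.7 and 0.572 FPKM against 108 and 127 FPKM, both chosen after their values were seen. Of the 32-base words of Gm5506, 88.7% occur in other genes. The tubulin genes Tubb2a and Tubb2b fell together, by 1.75 and 2.72 log2 units. They lie within chr13:34074280-34178172, a stretch bounded by called genes, where all 3 tested genes were called, 2 lower and 1 higher in MSM.

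Over all called genes, near-identical sequence was frequent. At least 50% of 32-base words were shared with another gene for 20 of 94 genes called lower (21.3%) and 8 of 86 called higher (9.30%), against 2.198% of all genes tested. By chromosome, 8.09% of the tested genes of chromosome 13 and 6.22% of those of chromosome 17 were called, against 2.57% overall.

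Hepatocyte genes filled much of the top of the genes higher in MSM. Of the 19 hepatocyte markers 17 reached the mean of 5 FPKM, 10 of them only through the untreated MSM thymus, so the filter favoured a higher MSM value in the untreated pair. Of these markers 2 were called, Apoc3 and Cyp3a11. Gc, Serpina1b, Ahsg and Fgg, which are not among the 19 markers, were called too. Apoc3, a plasma lipoprotein gene, stood at 0.902 and 0.922 FPKM in B6 and at 96.9 and 14.0 FPKM in MSM (4.32 ± 0.53, limma adjusted p = 0.00262). Gc, the vitamin D-binding protein, stood at 0.721 and 2.21 FPKM in B6 and at 117 and 8.57 FPKM in MSM (3.84 ± 0.80, limma adjusted p = 0.044). Serpina1b, Ahsg, Fgg and Cyp3a11 had the same pattern, with untreated differences of 5.00 to 6.26 and injected ones of 1.42 to 1.86. Gc, Serpina1b and Fgg also reached the mean of 5 FPKM only through the untreated MSM thymus, so the filter favoured a higher MSM value for them too.

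These genes moved with the hepatocyte marker sum, and their level in thymocytes was not tested. In the livers Gc stood between 4135 and 4643 FPKM in all 4 animals. Of the 89 genes called higher in MSM thymus, 40 had a higher mean in liver than in thymus, against 12 of the 95 called lower and 2698 of all 7148. With the genes higher in liver left out, 99 were called higher and 186 lower among the 4450 left. Col3a1, a collagen of fibroblasts, was the call among 5 markers of endothelium and fibroblasts, at 11.2 and 8.13 FPKM in B6 and 32.4 and 25.8 FPKM in MSM (1.51 ± 0.22, limma adjusted p = 0.00857). Of the 5, 3 were higher in both tables and 1, Pecam1, was lower in both (-0.98 and -0.76). The median of the list was 1.12 in the untreated and 0.06 in the injected pair.

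Many thymus differences were also present in liver. Of the 41 genes called lower in MSM thymus with a liver mean of at least 5 FPKM, 19 (46.3%) were at least 2-fold lower in both liver tables and 0 were 2-fold higher, against 2.37% and 1.35% of the 5097 tested genes expressed there. Of 63 genes called higher, 13 (20.6%) were 2-fold higher in both liver tables and 2 were 2-fold lower. H2-K1 stood at 791 and 695 FPKM in B6 livers and at 3.20 and 0.44 FPKM in MSM livers. H2-Ea-ps was listed at 0 in both B6 livers and stood at 8.95 and 6.57 FPKM in MSM livers. Liver and thymus came from the same animals, so these values are not from further mice.

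A test of whether the strain difference itself differed between thymus and liver called 4 genes (0.056% of 7148) by limma with the mouse as a block, and 643 genes had an unadjusted p under 0.05. All 4 are short noncoding RNAs. For the genes described above, the thymus and liver differences were not separated by this test, including H2-T3, at 0 in all 4 livers (limma adjusted p = 0.172), and Sgk1 (limma adjusted p = 0.172).

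The remaining lists gave few calls. Of 30 cell cycle genes 1 was called, Spdya, and the median was 0.09, and of 8 immediate-early genes 0 were called with a median of 0.05. Of 8 macrophage and dendritic cell markers Lyz2 was the single call and the median was -0.19. Hba-a1, an alpha globin gene and the single erythroid marker tested, stood at 46.0 and 9.77 FPKM in B6 and at 171 and 19.7 FPKM in MSM (1.41 ± 0.30, limma adjusted p = 0.0451) with differences of 1.87 in the untreated and 0.94 in the injected pair. Among 4 Slfn genes, 4 medullary epithelium markers, 8 fat markers, 3 airway markers, 2 neutrophil markers, 2 genes of regulatory and innate-like T cells, 1 B cell marker and 1 gene of the natural killer receptor list, 0 were called.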

How the data were processed

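Polyadenylated RNA of the thymus and liver of 4 mice was sequenced with a TruSeq RNA kit. Per the submitters' processing notes, mm10, TopHat and Cuffdiff 2.2.1 were used. Their gene annotation is not given in the sources used here. The authors deposited FPKM per gene in 2 separately normalized tables, untreated and injected, so treatment coincides with table and was not tested. The deposited interval of every one of the 93136 thymus values starts at 0, and 0 genes had intervals that did not overlap.

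Levels were taken as log2(FPKM + 1), which understates differences of low genes. limma 3.58.1 (R 4.3.3) with its mean trend was fitted to the 4 thymus libraries with treatment as a block (1 residual degree of freedom, prior 7.95), two-sided, with Benjamini-Hochberg adjustment over 7148 genes. Its trend sets a wider SE for genes of low level. The tissue test used all 8 libraries with mouse as a block. The code was tested on simulated data. Positions and 32-base words came from GENCODE M21 (22550 of 23284 genes matched). Depth was read back from the steps between low FPKM values, of which 78.0% to 79.8% were whole fragments within 0.1, against 20% by chance. A scale finer by a whole factor would leave the same values whole, so depths may be higher by such a factor. They are estimates that cover counting error only, and MSM reads lost to divergence from mm10 are not counted.

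Members, 21 gene lists and 11 marker lists were chosen with earlier results of these data known. The text names the 12 largest called differences each way (predicted, unnamed, pseudogene and short noncoding names left out) and called list members (10 histone genes by their range only). Otherwise it names up to 4 list members with the largest difference, markers of other cell types, Fas, and genes in clusters of 3 or more called genes. In the cluster with the tubulin genes, the called gene higher in MSM is counted without its name. Chosen after their values were seen were B2m, Bcl2, Casp8, Cd3e, Cd74, Cd8a, Dntt, Fkbp5, H2-Bl, H2-D1, H2-DMa, H2-DMb2, Lck, Psmb8, Xist and those marked so. Alternatives were other added values, filters, scalings, moderation and blocks, sets without liver-high or short noncoding genes, and each library left out. 2 list members are not reported here by name and 1 of them is not drawn.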

Additional observations from a re-analysis of the deposited data

Results flagged for a closer look

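For 4 short noncoding RNA genes the strain difference in thymus was separated from the strain difference in liver by limma's test of the interaction (adjusted p under 0.05 over 7148 genes). Mir682, a microRNA gene, had a thymus minus liver difference of 7.396 log2 units, being listed at 0 in both B6 thymi and in all 4 livers and at 176 and 159 FPKM in the MSM thymi. Snora34, a small nucleolar RNA gene, had a difference of -7.77, with 0 in both B6 livers and 131 and 289 FPKM in the MSM livers, while its thymus levels were 263 and 333 FPKM in B6 and 161 and 437 FPKM in MSM. Snora52 had a difference of -7.067, again with 0 in both B6 livers. Snord35a had a difference of -7.6, and its thymus levels were 194 and 388 FPKM in B6 and 0 and 858 FPKM in MSM. These libraries were made from polyadenylated RNA, and how well they measure such short RNAs was not tested.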

How the results depend on the processing

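The number of calls depended on the settings. Against 89 genes higher and 95 lower, an added value of 0.1 gave 146 genes lower and 5 gave 57 higher. A mean of at least 1 FPKM gave 113 calls (44 higher), no filter 62 (26 higher, 36 lower) and at least 1 FPKM in every library 439 (221 higher, 218 lower). Centring by the median ratio gave 34 (12 higher, 22 lower) and a common sum 31 (10 higher, 21 lower), so the share called higher went from 48.4% to 35.3% and 32.3%. limma without mean trend gave 89 (33 higher, 56 lower), with robust moderation 423 (202 higher, 221 lower) and without the treatment block 86 (34 higher, 52 lower). Leaving out genes higher in liver gave 285 (186 lower), and leaving out short noncoding RNA genes 366 (184 higher, 182 lower). Leaving out 1 library, which also drops the block since it cannot be fitted on 3 libraries, gave 15 to 202 calls, 8 to 129 higher and 7 to 73 lower. For genes 2-fold apart in both tables, an added value of 5 gave 55 higher and 80 lower, a mean of at least 1 FPKM 198 and 279, at least 1 FPKM in every library 75 higher, 1.5-fold 309 and 322, 4-fold 30 and 43, and leaving out genes higher in liver 58 higher. The tissue test gave 23 calls with an added value of 5, 9 with robust moderation, 9 without the mouse block, and 3 to 89 with 1 mouse left out. Of the 64 called genes named in the text, 18 were called in every setting that kept all libraries, and, with the block dropped too, 31 lost the call without the untreated MSM thymus, 56 without the untreated B6, 55 without the injected B6 and 22 without the injected MSM thymus. B2m was at -0.019 with a common sum, against 0.05. With 1 library and the block left out, so that libraries of both tables are set against each other, the difference ran from -0.145 to 0.236 for B2m, -0.267 to 0.245 for Cd8a, -0.465 to 1.03 for Fkbp5, -0.123 to 2.94 for Hba-a1, -0.254 to 0.18 for Lck, -0.223 to 0.603 for Psmb11, -0.033 to 0.208 for Psmb8, -0.877 to 0.56 for Snora34, -0.556 to 0.299 for Snora52, -8.11 to 1.64 for Snord35a, -0.331 to 0.035 for Xist, and 0 to 8.65 for Scgb1a1. No other named gene changed sign or fell to 0 in a setting run. No replicate numbers pair the libraries; strains were paired within a table by the treatment block, and tissues within a mouse. The cause of these changes was not tested. At an estimated 28.2 to 35.0 fragments for 5 FPKM on 2 kb, counting error alone is wide for genes near that level.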
